A study of Homo sapiens with 4 samples.

Results

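The ABC transporter genes of HepG2 cells, a human line that the authors list under hepatocellular carcinoma, were taken from the deposited count files. They are the genes whose symbol is ABC, a letter from A to G and a number. The rule found 46 genes among 24462, after the 52 lines that carry these symbols were summed by symbol, and 44 of them are described here. The series holds 4 QuantSeq 3′ mRNA sequencing libraries, 1 per condition, all from HepG2 cells kept in RPMI medium with fetal bovine serum. DMSO is the solvent control, PD0332991 is a CDK4/6 kinase inhibitor, scrambled siRNA is the transfection control, and CDK4/6 KD cells received siRNA oligos against CDK4 and CDK6 together. The comparisons ask how gene expression differed when CDK4/6 was inhibited by the drug or by knockdown. Neither a dose nor an exposure time is stated for these libraries in the sources used here.

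ABC proteins bind ATP and use its hydrolysis to move a substrate across a membrane. In hepatocytes, members of the canalicular membrane export bile salts, phospholipid, sterols and conjugated compounds into bile, while basolateral members send conjugates back to blood. Other members load cholesterol onto apolipoproteins, carry fatty acyl-CoA into peroxisomes, serve heme metabolism in mitochondria, or expel drugs, which makes several of them known resistance genes in cancer. The ABCE and ABCF proteins keep the ATPase but have no membrane domain and act on ribosomes. By these roles the 44 genes were sorted into 14 lipid transporters, 5 bile transporters, 10 drug-efflux transporters, 2 peroxisomal, 3 mitochondrial and 2 lysosomal transporters, 3 genes of ATP release or channel regulation, 4 translation factors and 1 pseudogene, ABCC13.

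Library totals ran from 8983848 to 11176880 reads, and the ABC genes described here took between 0.12% and 0.147% of them. The knockdown targets were low in their library, with fold changes against scrambled siRNA of 0.203 for CDK4 and 0.241 for CDK6. All 10 hepatocyte markers checked had reads in every library, with a summed level of 17400 to 22300 CPM (read counts scaled to the library total and by TMM factors). Endothelial markers summed to 0.353 to 0.657 CPM, fibroblast markers to 8.6 to 79.1, blood cell markers to 509 to 1030, with 2 or 3 of the 6 at 0 in each library and all but 7.69 to 15.5 CPM from LYZ, and keratinocyte markers to 60.7 to 153. In these bulk libraries, fewer cells of a type and less RNA per cell cannot be told apart. Each condition had 1 library, so no comparison had a replicate check, no test was run and no p-value was computed. The 95% interval beside a fold change is the Clopper-Pearson interval of how the reads of a gene divide between 2 libraries. It covers counting error only, and it sets libraries side by side rather than conditions. No molecular identifiers are named, so PCR copies could make the true intervals wider.

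Of the 44 genes, 30 reached 10 reads in at least 1 library and 14 did not. The genes at 0 in all 4 libraries were ABCA9, ABCB5, ABCB11, ABCC8, ABCC12, ABCD2, ABCG1 and ABCG4. By counting error alone, 0 reads allow up to 0.265 CPM in the deepest-scaled library and 0.329 in the shallowest (3 reads). Whether reads of these genes were lost in mapping or counting was not tested. The genes at 0 include ABCB11, the bile salt export pump, and ABCG1, which passes cholesterol to HDL. The 6 genes with 1 to 9 reads at most were ABCA6, ABCA8, ABCA10, ABCA13, ABCC9 and ABCC13. Reads of QuantSeq come from the 3′ end of a transcript, so levels do not grow with gene length. On that scale, the translation factor ABCF1 was the most counted member of the set in every library, and the highest mean among transporters was 129 CPM for ABCB6.

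**Figure D1:**
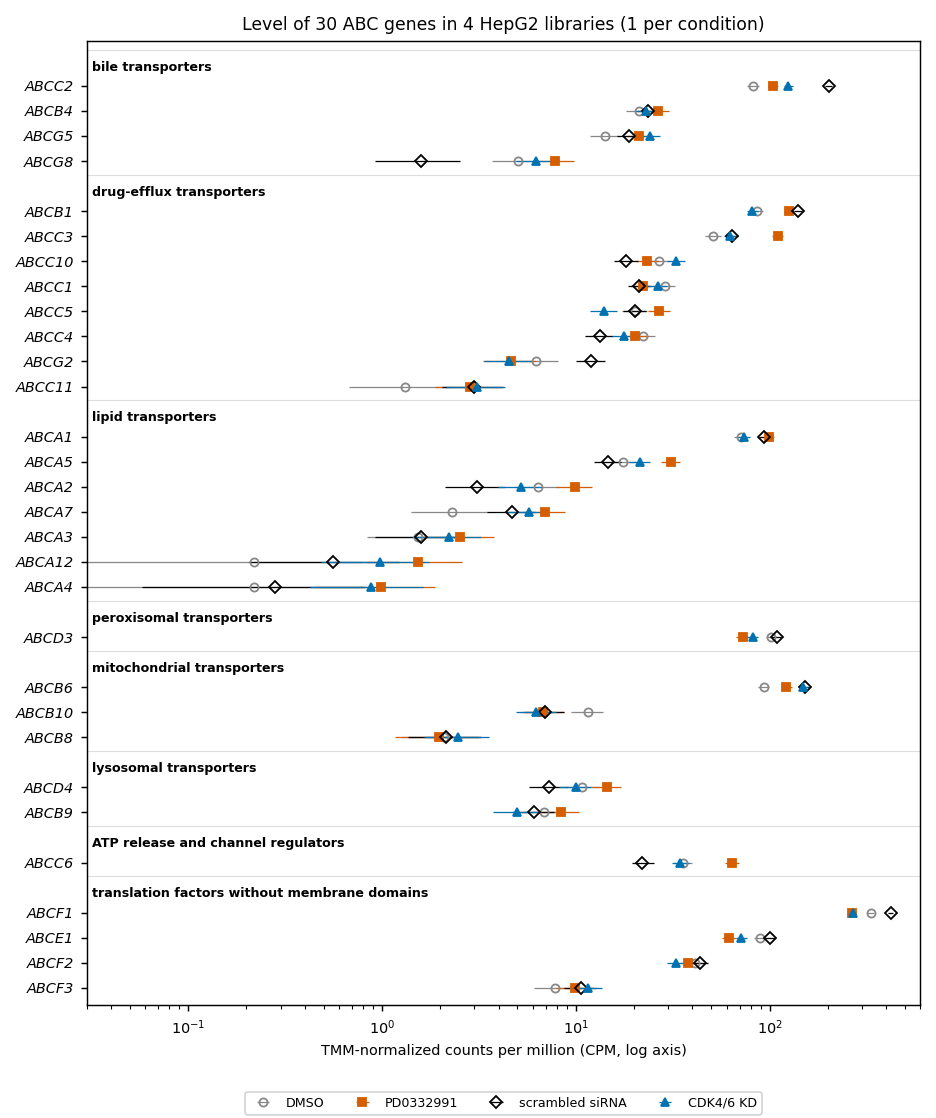
Level of the 30 ABC genes with at least 10 reads in 1 or more libraries, in TMM-normalized CPM on a log axis, by role group. Each symbol is 1 library and each bar its exact 95% Poisson counting interval, which for the lowest values runs past the left edge of the axis. Levels spanned from under 1 CPM (ABCA4, ABCA12) to 422 CPM (ABCF1 in scrambled siRNA), and ABCG8 in scrambled siRNA, at 1.59 CPM, sat below its other 3 libraries.

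At a threshold of 2-fold, few ABC genes were past it. In CDK4/6 KD against scrambled siRNA, 2 of the 30 genes past the read filter (at least 10 reads in either library) were higher, ABCA4 and ABCG8, and among all genes 9.19% were. On the other side, 1 was lower, ABCG2, against 7.62% of all genes. After PD0332991 against DMSO, 4 of 29 were higher, ABCA7, ABCA12, ABCC3 and ABCC11, against 7.49% of all genes, and 0 were lower, against 7.06%. Between the controls themselves, 3 of 28 were past 2-fold upward in scrambled siRNA against DMSO (ABCA7, ABCC2 and ABCC11, against 5.30% of all genes) and 2 were lower (ABCA2 and ABCG8, against 6.64%). With controls exchanged, CDK4/6 KD had 4 of 30 higher than DMSO (ABCA4, ABCA7, ABCA12 and ABCC11, against 8.04%) and 0 lower (against 8.16%). PD0332991 had 5 of 29 higher than scrambled siRNA (ABCA2, ABCA5, ABCA12, ABCC6 and ABCG8, against 10.6%) and 1 lower (ABCG2, against 8.17%). ABCA4 and ABCA12 passed the filter only through the library in which they were high.

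Smaller differences leaned upward after PD0332991. The interval lay above 1 for 16 of 29 genes (55.2%, against 28.1% of all genes) and below 1 for 5 (17.2%, against 28.6%), and the median log2 fold change was 0.39, beside 0.02 for all 13443 genes. With scrambled siRNA as the control, 10 of 29 lay above 1 (34.5%, against 30.5% of all genes) and 8 below (27.6%, against 32.5%), and the median was 0.16. In CDK4/6 KD, 9 of 30 lay above 1 (against 30.0%) and 9 below (against 31.9%), with a median of 0.08. The control libraries also differed from each other. Between scrambled siRNA and DMSO, 12 of 28 genes lay above 1 (against 28.3%) and 8 below (against 28.0%). The comparisons share control libraries, so their values are not independent of each other.

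**Figure D2:**
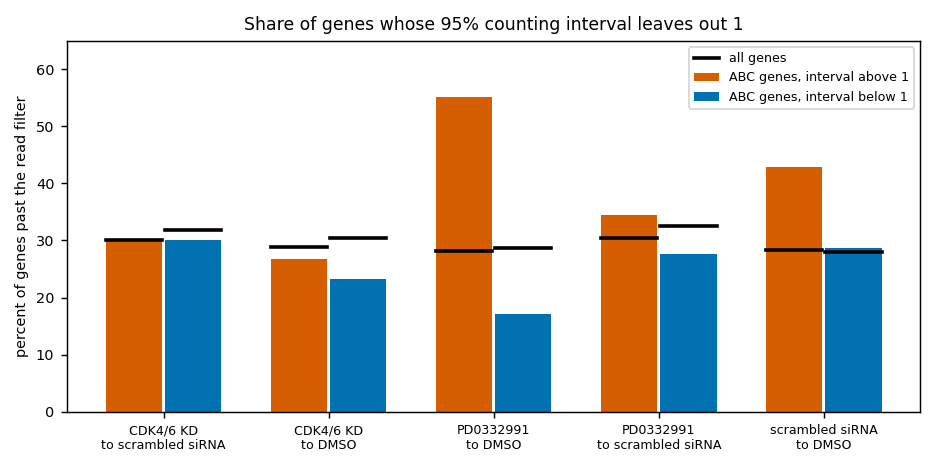
Percent of ABC genes (bars) and of all genes (black lines) past the read filter whose 95% counting interval lay above 1 or below 1, for 5 pairs of libraries. Only the bar for intervals above 1 in PD0332991 to DMSO, at 55.2%, and that in scrambled siRNA to DMSO, at 42.9%, stood more than 10 percentage points over the line for all genes among these pairs, and no p-value belongs to the difference.

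**Figure D3:**
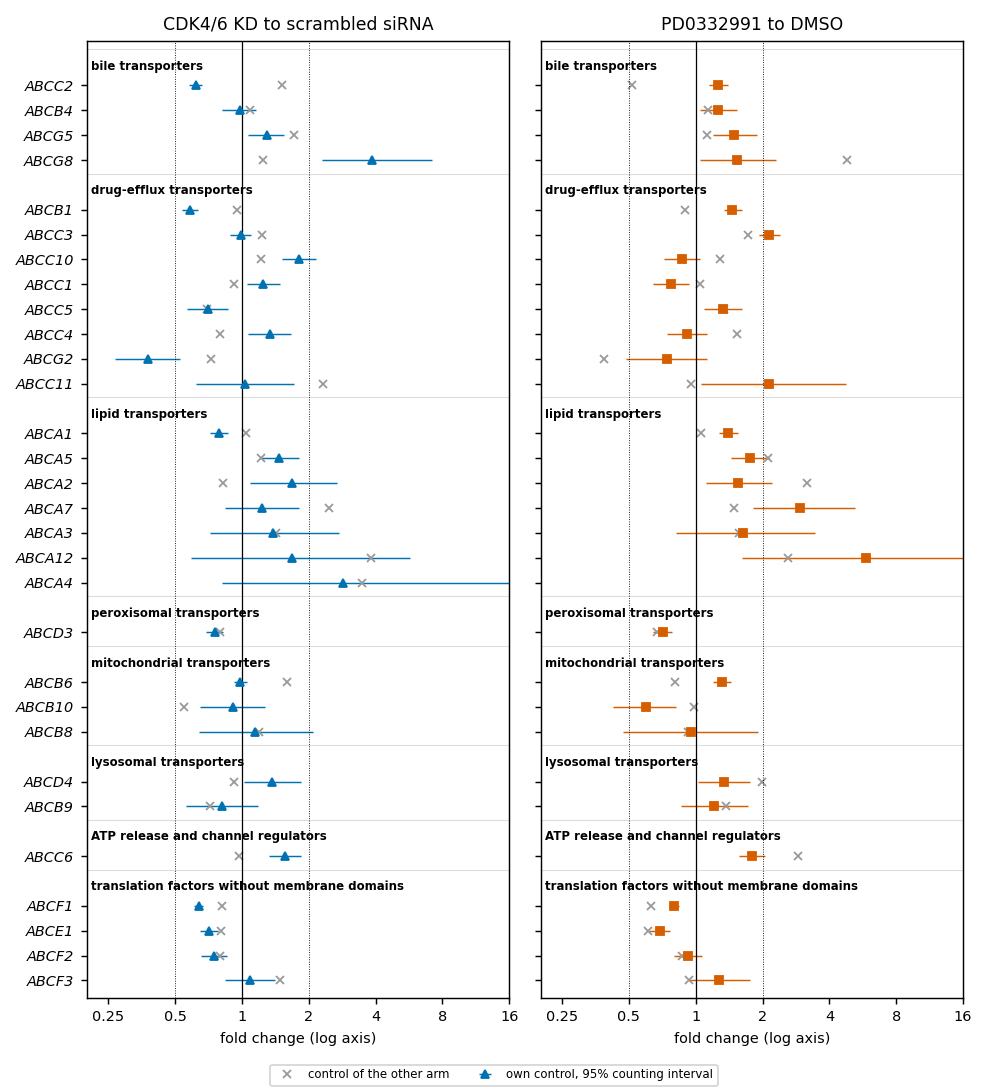
Fold change of each ABC gene past the read filter in CDK4/6 KD against scrambled siRNA (left) and PD0332991 against DMSO (right), on log axes with dotted lines at 0.5 and 2. Filled symbols and bars give the value and 95% counting interval against the control of the same arm, gray crosses the value against the control of the other arm, and the intervals of ABCA4 (left) and ABCA12 (right) run past the axis. ABCD3, ABCE1 and ABCF1 sit left of 1 in both panels with either control, while ABCC2 changes side with the control in both.

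Among the bile transporters, ABCG5 and ABCG8 were higher in both CDK4/6-inhibited libraries than in their own controls, and ABCC2 differed in direction between the arms. ABCG5 and ABCG8 together form the sterol exporter of the canalicular membrane, and they lie on chromosome 2, with ABCG5 on the minus strand (43812472 to 43838865) and ABCG8 on the plus strand (43831942 to 43882987; GENCODE 29, GRCh38). These annotated spans overlap. The starts that RefSeq gives, at 43838839 and 43838971, leave 131 bases between them, shown here because the ratio of the 2 genes differed between libraries. By the GENCODE spans, all of these bases lie inside ABCG8 and the first of them also inside ABCG5. The stretch is chr2:43838840-43838970, plus strand of GRCh38.p14, from RefSeq, with capitals marking a match to the GATA motif AGATAA on the opposite strand.
ABCG5/ABCG8: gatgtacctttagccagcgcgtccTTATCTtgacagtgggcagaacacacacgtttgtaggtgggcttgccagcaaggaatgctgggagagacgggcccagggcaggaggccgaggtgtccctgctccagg
Searched on both strands, AGATAA was found in the 250 bases upstream of a start in 9.17% of 35116 RefSeq windows, and in 5 of the 53 windows of the 35 ABC genes that have one, or 9.43% (ABCA10, ABCB1, ABCB11, ABCG5 and ABCG8). A match of letters is a description and not a bound site. CAAGGTCA, the sequence bound by NR5A2, was found upstream of none of the 35.

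ABCG5 measured 14.1 CPM in DMSO, 21.1 in PD0332991, 18.9 in scrambled siRNA and 24.3 in CDK4/6 KD. Both inhibited libraries were above both controls, by 1.49-fold after PD0332991 (interval 1.19 to 1.88) and by 1.29-fold in CDK4/6 KD (interval 1.07 to 1.55). Against the control of the other arm, the value was 1.72 in CDK4/6 KD (interval 1.39 to 2.14) and 1.12 after PD0332991 (interval 0.912 to 1.37), which holds 1. ABCG8 measured 5.03, 7.8, 1.59 and 6.27 CPM in the same order, on 46, 71, 17 and 71 reads. Scrambled siRNA was the low library here, and the other 3 lay closer together. The fold change of ABCG8 in CDK4/6 KD was 3.87 (interval 2.3 to 7.15) against scrambled siRNA and 1.24 (interval 0.848 to 1.85) against DMSO. After PD0332991 it was 1.54 against DMSO (interval 1.05 to 2.3) and 4.79 against scrambled siRNA. The ratio of ABCG5 to ABCG8 reads was 2.8 in DMSO (interval 1.99 to 4.02), 2.7 in PD0332991, 3.87 in CDK4/6 KD (interval 2.97 to 5.1) and 11.9 in scrambled siRNA (interval 7.24 to 20.8).

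ABCC2 (MRP2) exports bilirubin glucuronide and other conjugates into bile and lies on chromosome 10 from 99782640 to 99852594. Its level was 82.3 CPM in DMSO, 104 in PD0332991, 202 in scrambled siRNA and 125 in CDK4/6 KD. Scrambled siRNA stood highest, 2.45-fold over DMSO (interval 2.26 to 2.67). CDK4/6 KD was lower than its own control (fold change: 0.62, interval 0.58 to 0.663) and higher than DMSO (fold change: 1.52, interval 1.39 to 1.66). PD0332991 was higher than DMSO (fold change: 1.26, interval 1.15 to 1.39) and lower than scrambled siRNA (fold change: 0.516). ABCB4 (MDR3), which moves phosphatidylcholine into bile, varied least of the 4 measured bile transporters, with 21.1, 26.6, 23.6 and 23 CPM in DMSO, PD0332991, scrambled siRNA and CDK4/6 KD. Its interval in CDK4/6 KD held 1 (fold change: 0.975), and after PD0332991 it lay above 1 (fold change: 1.26, interval 1.04 to 1.53).

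The drug-efflux transporters, with 8 of 10 measured, gave both directions in each comparison: 3 lay above 1 and 3 below in CDK4/6 KD (against 30.0% and 31.9% of all genes), and 4 above and 1 below after PD0332991 (against 28.1% and 28.6%). ABCC3 (MRP3), which sends glucuronide conjugates and bile acids to blood across the basolateral membrane (chromosome 17, 50634777 to 50692252), was the most counted gene past 2-fold after PD0332991. It measured 51.1 CPM in DMSO, 110 in PD0332991, 63.7 in scrambled siRNA and 62.8 in CDK4/6 KD. PD0332991 was the highest library, with a fold change of 2.14 against DMSO (interval 1.92 to 2.4) and 1.72 against scrambled siRNA (interval 1.56 to 1.9), and the CDK4/6 KD value of 0.986 held 1. ABCC2 and ABCC3 carry overlapping conjugates across opposite faces of the hepatocyte. Their read ratio within each library was taken after their values had been seen, so it restates those values. ABCC2 reads were 1.61 times those of ABCC3 in DMSO (interval 1.43 to 1.81), 0.95 in PD0332991 (interval 0.868 to 1.04), 3.17 in scrambled siRNA (interval 2.9 to 3.46) and 1.99 in CDK4/6 KD (interval 1.82 to 2.18). In each inhibited library the ratio was below that of its own control, and the ratio in CDK4/6 KD was above that in DMSO.

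ABCB1 (MDR1, P-glycoprotein), the broad-range drug pump (chromosome 7, 87503633 to 87713323, minus strand), measured 85.9 CPM in DMSO, 126 in PD0332991, 140 in scrambled siRNA and 81.5 in CDK4/6 KD. It was high in PD0332991 and scrambled siRNA and low in the other libraries, so that the arms ran opposite ways: the fold change was 1.46 after PD0332991 (interval 1.34 to 1.61) and 0.583 in CDK4/6 KD (interval 0.536 to 0.633). Between the controls, scrambled siRNA was 1.63-fold over DMSO (interval 1.49 to 1.78). With controls exchanged, the values were 0.899 after PD0332991 and 0.949 in CDK4/6 KD (interval 0.862 to 1.05). ABCG2 (BCRP), another multidrug pump, was below both controls in both inhibited libraries. Its levels were 6.24 CPM in DMSO, 4.61 in PD0332991, 12 in scrambled siRNA and 4.51 in CDK4/6 KD, on 57, 42, 128 and 51 reads. Scrambled siRNA was the high library, 1.91-fold over DMSO. In CDK4/6 KD the fold change of ABCG2 was 0.379 (interval 0.267 to 0.525) and 0.724 against DMSO (interval 0.485 to 1.07), and after PD0332991 it was 0.742 (interval 0.484 to 1.12). Both intervals against DMSO held 1.

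ABCC10 (MRP7), a pump for natural-product drugs, was the drug-efflux gene with the largest ratio above 1 in CDK4/6 KD. It measured 27 CPM in DMSO, 23.4 in PD0332991, 18.2 in scrambled siRNA and 33 in CDK4/6 KD. CDK4/6 KD was the highest library, with a fold change of 1.81 (interval 1.52 to 2.16) and of 1.22 against DMSO (interval 1.04 to 1.44). The last 500 bases of ABCC10 overlap DLK2 on the opposite strand, and the strand setting of the counting is not stated in the sources used here. ABCC11 (MRP8) rested on 12, 26, 32 and 35 reads in DMSO, PD0332991, scrambled siRNA and CDK4/6 KD. Here DMSO was the low library. Its fold change after PD0332991 was 2.13 (interval 1.06 to 4.73), and 0.956 against scrambled siRNA. The end of ABCC11 also overlaps another annotated gene, on its own strand.

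ABCC1, ABCC4 and ABCC5, named here after their values were seen, ran from 13.3 to 28.9 CPM. ABCC5 (MRP5), an exporter of cyclic nucleotides, was lowest in CDK4/6 KD, at 14 CPM beside 20.1 in scrambled siRNA and 20.2 in DMSO, and highest in PD0332991, at 26.9. Its controls nearly coincided, and its fold changes of 0.7 in CDK4/6 KD (interval 0.566 to 0.862) and 1.33 after PD0332991 (interval 1.09 to 1.62) became 0.695 and 1.34 with controls exchanged. ABCC5 thus kept its direction in each arm under either choice of control, while ABCC1 (1.25 in CDK4/6 KD and 0.772 after PD0332991) gave 0.917 and 1.05 with controls exchanged. Intervals lay on opposite sides of 1 in the arms for 5 of the 29 ABC genes past the filter in both, beside 12.9% of all genes. ABCC4 (MRP4) was 1.34-fold higher in CDK4/6 KD and 0.8 against DMSO.

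**Figure D4:**
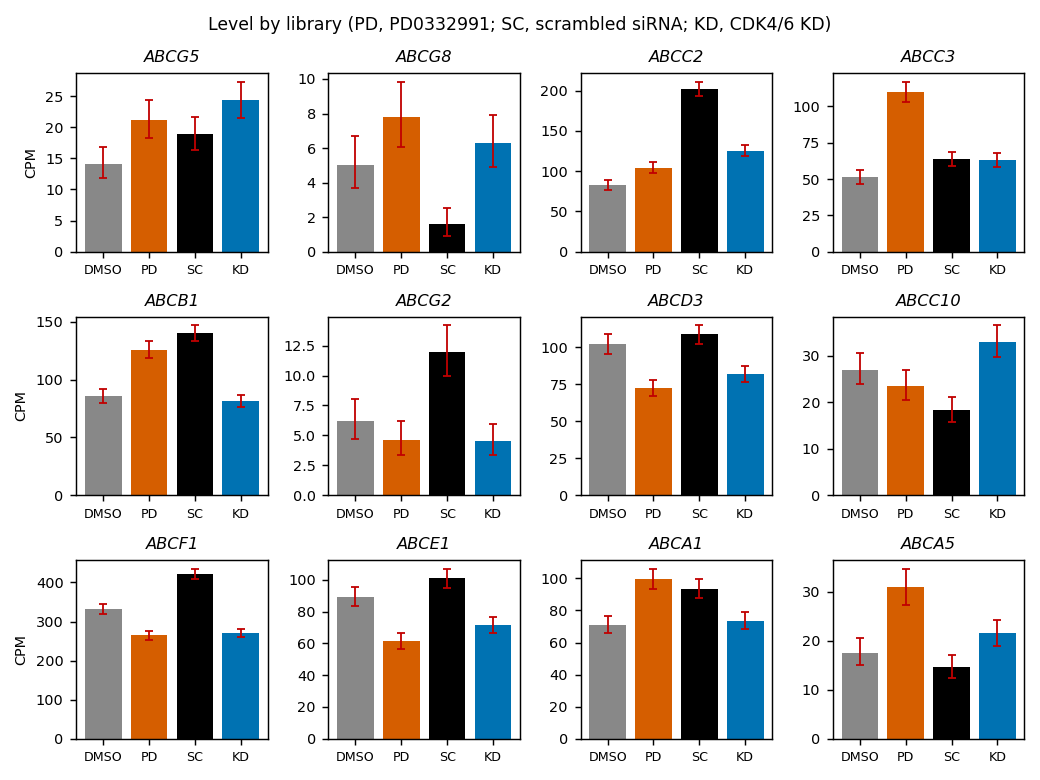
Level of 12 ABC genes in TMM-normalized CPM, 1 bar per library with its exact 95% Poisson counting interval in red. Each panel has its own axis from 0. ABCG8, ABCC2 and ABCG2 are set apart by the scrambled siRNA bar, ABCC3 and ABCA5 by the PD0332991 bar, and ABCD3, ABCF1 and ABCE1 have both inhibited libraries below both controls.

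Of the 14 lipid transporters, 7 were measured, and after PD0332991 the interval lay above 1 for 5 of the 6 past the filter (against 28.1% of all genes) and below 1 for none (against 28.6%). The 5 include ABCA12, on 2 and 14 reads, which passed the filter only through PD0332991. Against scrambled siRNA the interval lay above 1 for 3 of the 6 (against 30.5% of all genes) and below 1 for none (against 32.5%). In CDK4/6 KD it lay above 1 for 2 of 7 (against 30.0%) and below 1 for 1 (against 31.9%). ABCA1, which loads cellular cholesterol and phospholipid onto apolipoprotein A-I, was by far the most counted. Its level was 71 CPM in DMSO, 99.5 in PD0332991, 93.5 in scrambled siRNA and 73.6 in CDK4/6 KD. PD0332991 and scrambled siRNA were high, the pattern also seen for ABCB1. The fold change of ABCA1 was 1.4 after PD0332991 (interval 1.27 to 1.55) and 0.787 in CDK4/6 KD (interval 0.717 to 0.863), but with controls exchanged both were near 1, at 1.06 (interval 0.971 to 1.16) and 1.04 (interval 0.934 to 1.15).

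ABCA5, a transporter of late endosomes and lysosomes, measured 17.6 CPM in DMSO, 30.9 in PD0332991, 14.6 in scrambled siRNA and 21.5 in CDK4/6 KD. Both inhibited libraries lay above both controls, with fold changes of 1.75 after PD0332991 (interval 1.44 to 2.14) and 1.47 in CDK4/6 KD (interval 1.2 to 1.81). With controls exchanged they were 2.11 (interval 1.73 to 2.59) and 1.22, the latter with an interval that held 1 (0.994 to 1.5). The end of ABCA5 overlaps ABCA10 on the same strand, and ABCA10 itself had 2 reads in all libraries together. ABCA2, of the same compartment, measured 6.35, 9.88, 3.08 and 5.21 CPM in DMSO, PD0332991, scrambled siRNA and CDK4/6 KD. PD0332991 was the high library and scrambled siRNA the low one. Fold changes of ABCA2 were 1.55 after PD0332991 (interval 1.11 to 2.21) and 1.68 in CDK4/6 KD (interval 1.09 to 2.67), and the latter was 0.822 against DMSO (interval 0.562 to 1.2).

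ABCA7, a phospholipid transporter close to ABCA1 in sequence, had 21 reads in DMSO, 63 in PD0332991, 50 in scrambled siRNA and 65 in CDK4/6 KD, or 2.3, 6.92, 4.67 and 5.74 CPM. DMSO was the low library. After PD0332991 its fold change was 2.96 (interval 1.81 to 5.19) and 1.48 against scrambled siRNA (interval 1.01 to 2.19), while the CDK4/6 KD interval held 1 (fold change: 1.23, interval 0.837 to 1.81). ABCA12, which carries lipids into the lamellar granules of keratinocytes, had 2, 14, 6 and 11 reads in the same order. The ratio of PD0332991 to DMSO was 5.82 with an interval of 1.61 to 63.7. In the same comparison, 7 of 8 keratinocyte markers past the filter exceeded 2-fold, beside 7.49% of all genes, but these 7 had 2 to 9 reads in DMSO and passed the filter through PD0332991. Between scrambled siRNA and DMSO, 6 of 7 exceeded 2-fold, beside 5.30% of all genes, and these 6 also had 2 to 9 reads in DMSO. In CDK4/6 KD against scrambled siRNA, 2 of 7 exceeded it, beside 9.19% of all genes. The 15 markers summed to 71.1 CPM in DMSO and 153 in PD0332991 beside 60.7 and 105 in scrambled siRNA and CDK4/6 KD. KRT10, a keratin of the suprabasal epidermis, gave 66.3, 77, 48 and 87.1 CPM of these sums in DMSO, PD0332991, scrambled siRNA and CDK4/6 KD, and the other markers together 4.82, 76.2, 12.7 and 17.4. Between 1 and 4 of the markers were at 0 in a library. Their part in the ABCA12 value was not tested. ABCA3, the surfactant lipid transporter of lung, had 14 to 25 reads and intervals that held 1. ABCA4, the retinal transporter, had 2, 9, 3 and 10 reads, and its CDK4/6 KD ratio of 2.85 had an interval that held 1 (0.811 to 17.8).

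Of the peroxisomal transporters described here, ABCD3 was measured and ABCD2 was at 0. ABCD3 (PMP70) takes up branched-chain acyl-CoA and bile acid precursors (chromosome 1, 94418455 to 94518666) and was below both controls in both inhibited libraries. It measured 102 CPM in DMSO, 72.5 in PD0332991, 109 in scrambled siRNA and 81.7 in CDK4/6 KD. The controls lay close together and the inhibited libraries lower, with fold changes of 0.71 after PD0332991 (interval 0.642 to 0.785) and 0.753 in CDK4/6 KD (interval 0.689 to 0.821). Exchanged controls gave 0.668 and 0.8, with both intervals under 1.

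Of the mitochondrial transporters, ABCB6, ABCB8 and ABCB10 are described. ABCB6, which carries porphyrins, measured 93.1 CPM in DMSO, 122 in PD0332991, 152 in scrambled siRNA and 149 in CDK4/6 KD. The siRNA libraries were the higher ones, and CDK4/6 KD differed from scrambled siRNA by less than counting error (fold change: 0.983, interval 0.918 to 1.05, or 1.06 by total counts alone). After PD0332991 the fold change of ABCB6 was 1.31 (interval 1.2 to 1.44), and 0.805 against scrambled siRNA. The end of ABCB6 overlaps another annotated gene on its strand. ABCB10, which serves heme synthesis, measured 11.5 CPM in DMSO and between 6.27 and 6.92 in the other 3 libraries. DMSO alone was high, so the fold change of 0.594 after PD0332991 (interval 0.426 to 0.819) was matched by 0.604 for scrambled siRNA against DMSO, and against scrambled siRNA the value after PD0332991 was 0.985. ABCB8 had between 18 and 28 reads, and all its intervals held 1.

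The lysosomal ABCD4, which works in cobalamin release, measured 10.8 CPM in DMSO, 14.5 in PD0332991, 7.29 in scrambled siRNA and 9.98 in CDK4/6 KD. PD0332991 was the high library, at 1.34-fold over DMSO (interval 1.02 to 1.75) and 1.98-fold over scrambled siRNA. The value for CDK4/6 KD was 1.37 against scrambled siRNA (interval 1.02 to 1.85) and 0.922 against DMSO. ABCB9, a lysosomal peptide transporter, had intervals that held 1 in each comparison. ABCC6 (MRP6), through which hepatocytes release ATP and whose loss causes pseudoxanthoma elasticum, measured 35.6 CPM in DMSO, 63.8 in PD0332991, 22.1 in scrambled siRNA and 34.6 in CDK4/6 KD. PD0332991 stood highest, 1.79-fold over DMSO (interval 1.56 to 2.06) and 2.88-fold over scrambled siRNA (interval 2.47 to 3.37), while CDK4/6 KD was 1.56-fold over scrambled siRNA (interval 1.33 to 1.85) and level with DMSO (fold change: 0.974). These values are uncertain, because ABCC6 has near-identical partial copies. ABCC6P1 measured 47.7, 108, 52.9 and 62.2 CPM in DMSO, PD0332991, scrambled siRNA and CDK4/6 KD, and ABCC6P2 15, 13.5, 10.4 and 4.15. How the authors' counting divided shared reads is not stated. ABCC9, a potassium channel subunit, had 3 to 5 reads.

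Of the 4 translation factors, ABCF1 and ABCE1 were lower in both inhibited libraries. Intervals lay below 1 for 3 of 4 in CDK4/6 KD (against 31.9% of all genes) and for 2 of 4 after PD0332991 (against 28.6%), and above 1 for none. ABCF1, which binds initiation factor eIF2 (chromosome 6, 30571376 to 30597179), measured 332 CPM in DMSO, 265 in PD0332991, 422 in scrambled siRNA and 270 in CDK4/6 KD. Both inhibited libraries lay under both controls, with fold changes of 0.798 after PD0332991 (interval 0.756 to 0.842) and 0.64 in CDK4/6 KD (interval 0.611 to 0.67). With controls exchanged they were 0.627 and 0.814. Scrambled siRNA was itself 1.27-fold over DMSO. ABCE1, the ribosome recycling ATPase, was named after its values were seen, at 89.4, 61.5, 101 and 71.6 CPM in the same library order. Its fold changes of 0.688 after PD0332991 (interval 0.617 to 0.767) and 0.711 in CDK4/6 KD (interval 0.648 to 0.779) had intervals under 1 also with controls exchanged (0.61 and 0.801). The end of ABCE1 overlaps OTUD4 on the opposite strand. ABCF2 was 0.748 in CDK4/6 KD (interval 0.651 to 0.859) and 0.924 after PD0332991 (interval 0.796 to 1.07), and ABCF3 was 1.09 and 1.27, both with intervals that held 1.

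ABCD3, ABCE1 and ABCF1 were the only 3 of 29 ABC genes whose intervals lay below 1 after PD0332991 against both controls, beside 19.0% of all genes, and they were also among the 5 of 30 that did so in CDK4/6 KD, beside 19.6% (the others were ABCC5 and ABCF2). In the other direction, ABCG5 and ABCC10 lay above 1 against both controls in CDK4/6 KD (2 of 30, beside 17.2%). After PD0332991, 8 of 29 did, beside 17.7%, namely ABCA2, ABCA5, ABCA7, ABCC3, ABCC5, ABCC6, ABCD4 and ABCG8. None of these ABC genes lay above 1 in both inhibited libraries against both controls. The share of all genes that met the rule in both inhibited libraries together was not computed for either direction. When only the order of CPM was used, 7 of 30 genes (23.3%) had both inhibited libraries above both controls, beside 21.3% of all genes, and 6 (20%) had both below, beside 21.0%. These shares were near those of all genes.

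The sequence upstream of ABCF1 and ABCD3 is shown because these genes were low in both inhibited libraries. Each stretch is 150 bases of GRCh38.p14 from RefSeq, plus strand, ending before the first annotated transcript start: chr6:30571226-30571375 for ABCF1 and chr1:94418239-94418388 for ABCD3. Capitals mark a match to the antioxidant response element TGACNNNGC, on the opposite strand, and to the E-box CACGTG.
ABCF1: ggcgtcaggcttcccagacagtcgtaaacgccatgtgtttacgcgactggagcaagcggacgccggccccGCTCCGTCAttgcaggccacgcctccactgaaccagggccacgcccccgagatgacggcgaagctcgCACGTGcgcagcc
ABCD3: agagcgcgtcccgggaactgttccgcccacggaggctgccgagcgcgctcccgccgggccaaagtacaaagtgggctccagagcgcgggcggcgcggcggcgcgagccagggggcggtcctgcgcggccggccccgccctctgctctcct
The stretch of ABCD3 held none of the motifs searched. A gene can have several windows. Of the 53 windows of the 35 ABC genes, CACGTG was found in 9, from 8 genes (6.34% of all windows held it), TGACNNNGC in 9 (10.9%), and the E2F motif TTTCCCGC in 1, of ABCB6 (1.39%). TGACGTCA, a cAMP response element, was searched after the letters had been read (1.65% of all windows held it). Among the ABC genes, TGACGTCA was found only in a window of ABCE1, upstream of a RefSeq start. Windows follow RefSeq starts, and GENCODE starts can differ. The GENCODE start of ABCE1 lies upstream of its whole window, so this match lies inside ABCE1 as GENCODE annotates it. Direct repeats of AGGTCA spaced by 1 or by 4 bases were found in none. No motif was shared by ABCD3, ABCE1 and ABCF1 in these windows.

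Genes that work with the ABC proteins were counted on the same 2-fold scale, on which the shares of all genes past the threshold were 9.19% upward and 7.62% downward in CDK4/6 KD, and 7.49% and 7.06% after PD0332991. Of 18 receptors and factors that control ABC transporter genes past the filter in CDK4/6 KD, 1 was higher and 1 was lower. NR1H4, the bile acid receptor FXR that controls ABCB11, ABCB4 and ABCC2, had 257 reads in DMSO, 277 in PD0332991, 79 in scrambled siRNA and 337 in CDK4/6 KD. As with ABCG8, scrambled siRNA was the low library: the fold change of NR1H4 was 4.01 in CDK4/6 KD (interval 3.15 to 5.22), 1.08 after PD0332991, and 0.264 between scrambled siRNA and DMSO (interval 0.201 to 0.339). NR5A2 (LRH-1) had 29, 42, 102 and 29 reads in the same order, with scrambled siRNA high, and a fold change of 0.272 in CDK4/6 KD (interval 0.171 to 0.409). After PD0332991, 1 of the 19 was higher, NR1I3, on 2 and 11 reads, and 0 were lower.

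Among bile acid synthesis and transport partners, CYP7A1, CYP8B1 and KLB were past 2-fold upward in CDK4/6 KD (3 of 11), and BAAT and SLC51B downward (2). After PD0332991, SLC51A was past it upward and SLC51B downward (1 of 10 each). CYP7A1, the rate-limiting enzyme of bile acid synthesis, had 3 reads in DMSO, 9 in PD0332991, 1 in scrambled siRNA and 79 in CDK4/6 KD, so the ratio of CDK4/6 KD to scrambled siRNA was 50.6 with an interval of 13 to 2990. KLB, the co-receptor through which FGF19 acts on hepatocytes, had 995, 1494, 531 and 2294 reads and a fold change of 4.08 in CDK4/6 KD (interval 3.71 to 4.5). Scrambled siRNA was the low library of KLB, with a fold change of 0.456 to DMSO (interval 0.409 to 0.507). BAAT, which joins bile acids to taurine or glycine, had 39, 28, 362 and 108 reads, with scrambled siRNA the high library, and a fold change of 0.283 (interval 0.225 to 0.351). Of the cholesterol efflux and lipoprotein partners, LIPC and CETP (2 of 16) were past 2-fold upward and SOAT2 downward in CDK4/6 KD, and CETP (1 of 16) was past it upward after PD0332991, on 6 reads in DMSO and 16 in PD0332991, with an interval that held 1 (0.995 to 8.35). SOAT2, which esterifies cholesterol, had 247, 475, 969 and 323 reads (fold change: 0.315, interval 0.277 to 0.358, in CDK4/6 KD). Scrambled siRNA was the high library of SOAT2, 3.35-fold over DMSO (interval 2.91 to 3.87). LIPC, hepatic lipase, had 683, 788, 430 and 974 reads in the same order. LIPC was 2.14-fold higher in CDK4/6 KD (interval 1.91 to 2.4), but scrambled siRNA was its low library, with a fold change of 0.538 to DMSO (interval 0.475 to 0.607). CETP, on 1 read in scrambled siRNA and 12 in CDK4/6 KD, gave a ratio of 7.96 (interval 1.68 to 485).

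Drug uptake and conjugation partners had 7 of 22 past 2-fold upward in CDK4/6 KD and 3 of 21 after PD0332991 (GSTP1, UGT2B10 and UGT2B11), with 0 downward in either, beside the shares of all genes given above. The interval of UGT2B11, on 3 and 11 reads, held 1 (0.972 to 20.5). Between scrambled siRNA and DMSO, 3 of 21 were higher and 4 lower (against 5.30% and 6.64% of all genes). SULT2A1, the sulfotransferase of steroids and bile acids, had 887 reads in DMSO, 842 in PD0332991, 664 in scrambled siRNA and 2454 in CDK4/6 KD. CDK4/6 KD stood above the other 3 libraries, with a fold change of 3.49 (interval 3.21 to 3.81). GSTA1, a glutathione transferase of hepatocytes, had 60, 31, 34 and 120 reads in the same order. Its fold change was 3.3 in CDK4/6 KD (interval 2.26 to 5.04) and 0.488 between scrambled siRNA and DMSO (interval 0.308 to 0.749). GSTP1 was 3.13-fold higher after PD0332991 (interval 2 to 5.19). Among partners of the organelle transporters, 0 of 29 peroxisomal genes were past 2-fold in CDK4/6 KD and 1 of 29 was higher after PD0332991, PEX6, on 28 and 76 reads. None of 36 iron-sulfur cluster and heme genes and none of 12 genes of ribosome recycling and translation control was past 2-fold in either comparison. Of 4 potassium channel and peptide transporter genes past the filter, KCNJ11, the channel pore that pairs with ABCC8, was 2.12-fold higher in CDK4/6 KD (interval 1.28 to 3.73) and 4.44-fold after PD0332991 (interval 1.42 to 27), on 3, 15, 22 and 50 reads in DMSO, PD0332991, scrambled siRNA and CDK4/6 KD.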

How the data were processed

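Total RNA was made into QuantSeq 3′ libraries and sequenced as single-end reads. Values are read counts by gene symbol, which the authors deposited without normalization, with 1 file per library. The submitters' processing notes name Bowtie2, edgeR and hg19, and the counting tool and its strand setting are not given in the sources used here. The files list 25737 lines, in which 286 symbols repeat, and repeated symbols were summed. TMM factors (edgeR 4.0.16, R 4.3.3) ran from 0.957 to 1.03. To each count 0.5 reads, in proportion to the library total, were added before taking fold changes, and a gene needed 10 reads in 1 of the libraries compared. edgeR's quasi-likelihood test between conditions needs replicates, and no fit that pools conditions was run. Intervals (scipy 1.17.1) were tested on simulated Poisson counts. Those counts hold no variation between replicate libraries and no PCR copies, so only the calculation was checked. Gene positions are from GENCODE 29 on GRCh38, and sequences and motif windows from RefSeq on GRCh38.p14. No coordinates were converted.

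Members, roles, partner lists and markers were chosen with earlier results of these data known, so no list is independent evidence. Values in all libraries were given for members at least 1.5-fold apart with an interval that leaves out 1, for the most counted member of each role and for a set of well-known members. Of each partner list, up to 3 genes past 2-fold were picked for description, by the interval end nearest to 1, and some others were named beside a count. Of the members, 2 are not reported here and enter no count of members, nor is 1 partner gene. Pairs for read ratios were chosen after values were seen. Alternatives were DESeq2 size factors (DESeq2 1.42.0), total counts, quantile normalization (limma 3.58.1), a pseudocount of 5 reads, no filter, a filter of 50 reads, 1.5-fold, whole intervals past 2-fold, the control of the other arm and the most counted line of a repeated symbol. Counts of intervals under these alternatives were added after the data were seen.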

Additional observations from a re-analysis of the deposited data

Results flagged for a closer look

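Of the 29 ABC genes past the filter in both arms, 5 had intervals on opposite sides of 1 in the CDK4/6 KD and PD0332991 arms, beside 12.9% of all genes. With 1 library per condition the difference between arms was not tested. The first value of each pair is the fold change of CDK4/6 KD to scrambled siRNA and the second that of PD0332991 to DMSO. They were 0.787 and 1.4 for ABCA1, 0.583 and 1.46 for ABCB1, 0.62 and 1.26 for ABCC2, and 0.7 and 1.33 for ABCC5. ABCC1 ran the other way, at 1.25 and 0.772. With controls exchanged, ABCC5 kept both directions at 0.695 and 1.34. ABCC2 turned in both arms, to 1.52 and 0.516.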

How the results depend on the processing

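No paired analysis was possible because each condition had 1 library, so the groups share fewer than 2 replicate numbers. The count of ABC genes at least 2-fold higher in CDK4/6 KD (2) became 6 at 1.5-fold, 4 against DMSO, 1 with a filter of 50 reads, 4 with no filter, 1 with a pseudocount of 5 reads and 1 with the whole interval past 2-fold. That of genes lower in CDK4/6 KD (1, ABCG2) became 4 at 1.5-fold, 0 against DMSO, 2 with no filter (with ABCA8) and 0 with the whole interval. After PD0332991, the count of higher genes (4) became 9 at 1.5-fold, 2 with a filter of 50 reads, 7 with no filter and 0 with the whole interval, and that of lower genes (0) became 1 at 1.5-fold (ABCB10), 1 against scrambled siRNA (ABCG2) and 1 with no filter (ABCA6). Exchanging controls moved the count of intervals above 1 after PD0332991 from 16 to 10 and those below 1 from 5 to 8. It reversed, in CDK4/6 KD, ABCA1 (1.04), ABCA2 (0.822), ABCC1 (0.917), ABCC2 (1.52), ABCC4 (0.8), ABCC6 (0.974), ABCD4 (0.922) and the median log2 of the ATP release group (-0.04), which rests on ABCC6. After PD0332991 it reversed ABCB1 (0.899), ABCB6 (0.805), ABCC1 (1.05), ABCC2 (0.516) and ABCC11 (0.956). Of 59 fold changes, exchanging controls reversed these 12, moved another 27 outside the interval against their own control and left 20 inside it. Reversed means that the value crossed 1 where the interval against the own control had left out 1. With controls exchanged, the intervals of ABCC2 in both arms, ABCC4, ABCB1 and ABCB6 left out 1. Those of the other reversed values held 1. The cause of these shifts was not tested. DESeq2 size factors and the most counted line of a repeated symbol moved none of 59 fold changes beyond counting error, total counts alone moved 3 and quantile normalization 1. Depth limits genes with few reads, such as ABCA4 and ABCA12, whose intervals reach 17.8 and 63.7.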
